A study of Mus musculus with 6 samples.

Results

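The subcortical maternal complex and its KH-domain relatives were followed as 9 genes (Khdc3, Ooep, Nlrp5, Tle6, Padi6, Zbed3, Khdc1a, Khdc1b and Khdc1c), each found as 1 row of a table of 53656 rows by its gene symbol. The series compared the transcriptomes of mouse oocytes of 2 genotypes, wild type (WT, n = 3 libraries) and Khdc3-null (KO, n = 3 libraries), so that the members were read in the absence of one of their own. The cells were taken from ovaries by manual dissection, a kit for very small inputs gave the RNA, and the libraries were strand-marking. The labels give neither strain nor age, nor how the null allele was made, nor whether different animals stand behind the libraries of a genotype. P-values here reflect only how far the 6 libraries spread, and that spread may be technical.

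The subcortical maternal complex is a protein assembly under the membrane of the mammalian egg that is made from maternal mRNA and is needed for the first cleavages of the mouse embryo. Its members are stored in the growing oocyte and carried into the embryo, where they remain at the outer cortex and are kept out of regions of contact between cells. Khdc3 (FILIA) and Ooep (FLOPED) carry KH domains, a fold that in many proteins binds RNA. Nlrp5 (MATER) is a leucine-rich repeat protein of the NLR family, Tle6 belongs to the Groucho family of co-repressors, Padi6 is a peptidylarginine deiminase family member needed for the cytoplasmic lattices, and Zbed3 is a BED zinc finger protein reported in the same complex. The Khdc1 genes encode small KH-domain proteins and are not established members of the complex.

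The 3 Khdc1 genes lie side by side on the plus strand of chromosome 1 within 36.7 kb, and their sequences limit how far their values can be separated. The first 90 coding bases of one transcript of each gene (GENCODE M21), from the start codon, are shown 5′ to 3′ to make this visible, with the 2 positions at which the 3 sequences differ in capitals.
Khdc1a: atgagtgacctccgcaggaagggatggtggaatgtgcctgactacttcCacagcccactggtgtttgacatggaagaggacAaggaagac
Khdc1b: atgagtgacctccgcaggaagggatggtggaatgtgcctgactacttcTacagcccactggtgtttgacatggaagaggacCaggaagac
Khdc1c: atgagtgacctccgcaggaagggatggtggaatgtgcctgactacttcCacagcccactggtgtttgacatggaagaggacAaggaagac
Khdc1a and Khdc1c were identical over these bases, and Khdc1b stood apart from both. Over the aligned coding sequence Khdc1a and Khdc1c matched at 497 of 498 positions (99.8%), whereas Khdc1b matched each of them at 354 of 378 positions (93.7%). Of all 50-base stretches of the transcript, 43.5% in Khdc1a and 43.1% in Khdc1c also occurred in one of the other 2 genes, against 3.66% in Khdc1b. Values of Khdc1a and Khdc1c are therefore uncertain, since no source used here says how reads that fit both were counted. RefSeq lists Khdc1b and Khdc1c as synonyms of each other, so the values below follow the symbols of the deposited table. The row named Khdc1b gave whole reads at the exon length of that gene in GENCODE M21 (2236 bases), as did the row named Khdc1c (1946 bases). Khdc3 and Ooep shared no 50-base stretch with each other or with Khdc1b.

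The promoters of 4 members are shown next, because their genes are among the most abundant in these oocytes and their windows hold no annotated exon base of the same gene. Each is the 250 bases before the most upstream start listed by RefSeq (GRCm38.p6), 5′ to 3′ on the strand of the gene, with each CANNTG motif (the E-box, the core letters bound by basic helix-loop-helix factors such as FIGLA) in capitals.
Padi6 (chr4:140742644-140742893, minus strand): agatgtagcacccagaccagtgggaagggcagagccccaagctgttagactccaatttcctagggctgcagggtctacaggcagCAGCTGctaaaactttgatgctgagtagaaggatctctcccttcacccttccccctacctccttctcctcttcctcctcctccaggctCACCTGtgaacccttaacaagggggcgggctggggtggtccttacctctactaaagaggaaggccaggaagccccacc
Zbed3 (chr13:95323355-95323604, plus strand): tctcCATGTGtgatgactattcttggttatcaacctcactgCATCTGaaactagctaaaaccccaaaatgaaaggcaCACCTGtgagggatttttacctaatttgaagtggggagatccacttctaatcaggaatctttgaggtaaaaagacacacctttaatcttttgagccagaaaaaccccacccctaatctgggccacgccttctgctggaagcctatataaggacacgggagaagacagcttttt
Nlrp5 (chr7:23385639-23385888, plus strand): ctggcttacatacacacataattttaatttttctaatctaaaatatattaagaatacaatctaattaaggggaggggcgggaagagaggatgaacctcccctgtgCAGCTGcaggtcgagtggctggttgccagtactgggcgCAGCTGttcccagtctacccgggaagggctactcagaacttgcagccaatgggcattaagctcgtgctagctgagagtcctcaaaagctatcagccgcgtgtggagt
Khdc1b (chr1:21383306-21383555, plus strand): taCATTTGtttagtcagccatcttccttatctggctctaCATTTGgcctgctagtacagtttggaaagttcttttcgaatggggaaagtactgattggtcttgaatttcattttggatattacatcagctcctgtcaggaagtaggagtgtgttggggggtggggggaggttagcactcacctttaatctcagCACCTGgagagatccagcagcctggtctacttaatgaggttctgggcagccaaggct
RefSeq windows were found for 7 of the 9 genes. CANNTG, searched on both strands (its letters read the same on each), occurred in all 7, once in Ooep, 5 times in Khdc3, 3 times in Zbed3 and Khdc1b, and 2 times in Nlrp5, Tle6 and Padi6. It also occurred in 66.2% of the 32851 windows of the same length over all RefSeq starts. In Khdc3, Ooep and Padi6 one match began exactly 78 bases before the start, a position that held a CANNTG in 0.484% of all windows, a coincidence picked out after the matches were seen. It also depends on the start used. In GENCODE M21 the Khdc3 gene begins upstream of its whole window, and the Ooep match lies within annotated exon. The form CACCTG, on either strand and itself a CANNTG, was present in Khdc3, Padi6, Zbed3 and Khdc1b and in 17.2% of all windows. TAATTG, one form of the letters bound by the oocyte homeobox factor NOBOX, was found in the Ooep window alone among the 7, on either strand, and in 7.17% of all windows. Other forms that this factor may bind were not searched. The windows of Khdc3, Ooep and Tle6 overlap exons in GENCODE M21, by 57, 137 and 95 bases, and are not printed.

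Each library rested on 34640170 to 43343444 reads, as recovered from the steps between the deposited values. The values are RPKM, reads scaled to exon length and to library size, so that levels of different genes can be set side by side per length. The libraries carried the markers of the labelled cell type: all 12 oocyte markers were tested and 0 were called, led by H1foo, a linker histone of the oocyte (WT 3751 ± 214 and KO 4099 ± 258 RPKM; SD, n = 3 each), Gdf9, an oocyte growth factor (3343 ± 106 and 3289 ± 209 RPKM), and Zp3, a zona pellucida protein (2772 ± 186 and 2373 ± 123 RPKM). Summed over the list, these markers ranged from 15829 to 17206 RPKM in WT and from 15973 to 16898 RPKM in KO. Markers of granulosa and cumulus cells, which surround the oocyte, summed to between 145 and 280 RPKM in WT and to between 325 and 444 RPKM in KO, so the groups did not overlap. Most of each sum was Inha, an inhibin subunit, at 203, 197 and 104 RPKM in WT and 227, 242 and 310 RPKM in KO. Of the 18 markers, 14 were tested and 0 were called by limma. All 14 were higher in KO by point value, with a median log2 difference of 0.56. For 2 of the 14 every KO value lay above every WT value, where 25.8% of all tested genes were without overlap in either direction. The 4 that did not pass the filter on low values were Wt1 (means of 0.216 RPKM in WT and 0.328 in KO), Has2 (0.151 and 0.184), Tnfaip6 (0.0707 and 0.120) and Ptx3, which was listed at 0 in 5 libraries and at 0.0861 RPKM in WT replicate 1. Theca and stroma markers summed to between 26.2 and 57.2 RPKM in WT and to between 50.3 and 69.6 RPKM in KO. Of the 9 tested, 1 was called, Acta2, a smooth muscle actin (log2 difference 0.76, limma adjusted p = 0.034). The median log2 difference of the 9 was 0.73. Col1a1, Col1a2, Col3a1 and Dcn were higher in KO, with log2 differences from 0.56 to 1.03 (limma adjusted p from 0.11 to 0.18). Cyp11a1 measured 1.44, 23.1 and 1.40 RPKM in WT and 7.45, 28.7 and 11.4 RPKM in KO. By fitted log2 difference 2 of the 9 were lower in KO. For Cyp17a1 the difference was -0.02, and its mean RPKM was higher in KO (2.86) than in WT (2.09). The other was Myh11, a smooth muscle myosin and the most abundant of the list in WT. Myh11 measured 16.2, 15.4 and 15.5 RPKM in WT and 12.1, 14.2 and 13.7 RPKM in KO (log2 difference -0.22, limma adjusted p = 0.20). The part that these other cells play in the results below was not tested. In bulk libraries, fewer cells of a type and less RNA per cell cannot be told apart.

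Khdc3, the deleted gene, was read first as a check of the labels. Its level was 423, 425 and 502 RPKM in the 3 WT libraries and 0.224, 0.217 and 0.113 RPKM in the 3 KO libraries. The genotypes did not overlap, and every library matched its label. In reads, these values stood for 30025, 35398 and 41594 in WT and for 18, 18 and 10 in KO. The exact Poisson 95% intervals of the KO reads ran from 10.7 to 28.4, from 10.7 to 28.4 and from 4.80 to 18.4, and cover counting error only. KO libraries thus held 0.0410% of the WT mean, and Khdc3 moved from rank 75 of all rows in WT to rank 18246 in KO. On the log2(RPKM + 1) scale, which understates so large a difference, it fell by 8.57 ± 0.09 (SE; limma adjusted p = 1.8e-09, n = 3 per genotype). The exact two-sided permutation p was 0.10, the smallest that 3 against 3 libraries can give. Khdc3 lies on chromosome 9 (73101836 to 73104438, plus strand, GRCm38), and a predicted gene on the same strand, which has no row in the table, shares 790 of its 2050 exon bases. The sources used here do not say how reads on those shared bases were counted.

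**Figure D1:**
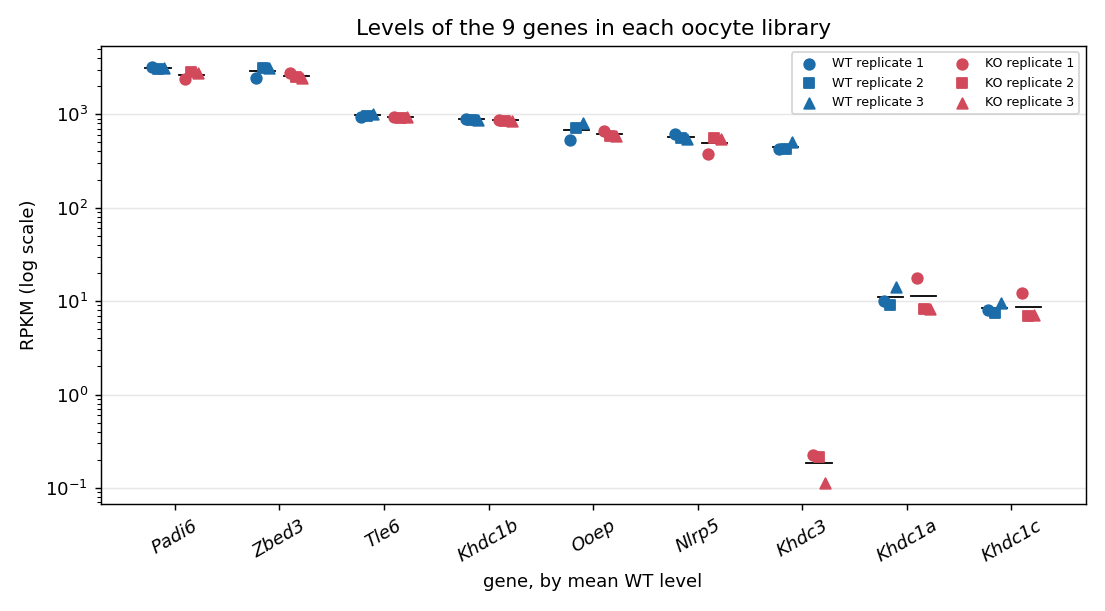
RPKM (log axis) of each of the 9 genes in every library, ordered by mean WT level, with WT in blue, KO in red, a marker shape per replicate number and a black line at each mean. Khdc3 is the gene whose genotypes separate widely, from 450 RPKM in WT to 0.185 RPKM in KO, while the other 8 stay close.

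In WT oocytes Padi6 and Zbed3 stood far above the rest. Padi6 averaged 3135 ± 83.3 RPKM (SD, n = 3) and was the 4th most abundant row, directly below Gdf9 in rank. Zbed3 averaged 2913 ± 384 RPKM and ranked 5th. Their ranges overlapped, and Padi6 exceeded Zbed3 in only 1 of the 3 WT libraries. Tle6 (970 ± 36.8 RPKM, rank 28), Khdc1b (880 ± 6.16 RPKM, rank 34), Ooep (686 ± 138 RPKM, rank 41) and Nlrp5 (572 ± 36.0 RPKM, rank 52) followed. Khdc3 (450 ± 45.1 RPKM, rank 75) was the lowest of these 7, and sat between Ubb, a polyubiquitin gene (467 ± 81.3 RPKM), and Gyg, the primer of glycogen synthesis (449 ± 20.2 RPKM). Neighbours in this order were separated in every WT library, except Padi6 and Zbed3, and Ooep and Nlrp5, whose ranges overlapped. Khdc1a (11.0 ± 2.61 RPKM, rank 4664) and Khdc1c (8.35 ± 1.04 RPKM, rank 5566) were far lower and overlapped each other.

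The 9 genes together held 2.89%, 3.10% and 3.10% of all RPKM in WT and 2.40%, 2.59% and 2.59% in KO, and the 3 KO shares lay below the 3 WT shares. The loss of Khdc3 itself is part of that difference. The sum of the 5 complex members that the mutation leaves in place (Ooep, Nlrp5, Tle6, Padi6 and Zbed3) was 7783, 8430 and 8616 RPKM in WT and 7093, 7356 and 7320 RPKM in KO, again without overlap. As a share of all RPKM these 5 held 2.47%, 2.68% and 2.66% in WT and 2.13%, 2.32% and 2.32% in KO. Taken singly, Tle6 and Padi6 had every KO value below every WT value, as 12.2% of all tested genes did. The genotypes overlapped for Ooep, Nlrp5 and Zbed3. Padi6 and Zbed3 alone accounted for 62.5% to 64.4% of the 9-gene sum in every library. The order of the genes without Khdc3 was the same in KO, apart from the interchange of Padi6 with Zbed3 and, in WT replicate 1, of Ooep with Nlrp5.

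Transcript stoichiometry against Khdc3 could be read in WT only. Per Khdc3 transcript, on the RPKM scale, there were 7.02 ± 0.725 of Padi6 and 6.49 ± 0.790 of Zbed3 (SD, n = 3). Tle6 stood at 2.16 ± 0.130, Khdc1b at 1.97 ± 0.196, Ooep at 1.52 ± 0.224 and Nlrp5 at 1.28 ± 0.188. RPKM divides by the length of all annotated exons, and the exons of Nlrp5 (4847 bases) and Tle6 (3088 bases) together are longer than their longest coding transcripts (3508 and 2015 bases). Per kilobase of that transcript instead, an alternative added after the data were seen, the ratios were 6.24 for Padi6, 6.10 for Zbed3, 2.72 for Tle6, 1.61 for Khdc1b, 1.25 for Ooep and 1.45 for Nlrp5, so that Nlrp5 then exceeded Ooep. Khdc3 remained the lowest of the 7 on both scales. Both rest on its reads as counted, and 790 of its 2050 exon bases are shared with a predicted gene. How reads on those bases were counted is not known, so the order of Khdc3 against Nlrp5 and Ooep is uncertain.

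Besides Khdc3, no member passed the test between genotypes. By limma 0 of the 8 were called at an adjusted p under 0.05, by voom on the recovered reads 0 were called, and 1 of the 8 had an unadjusted p under 0.05 by each. Of all 12272 tested genes 336 were called, or 2.74%, and 2329 had an unadjusted p under 0.05. All 9 members were tested, Khdc3 passing the filter on low values through its WT libraries alone. By fitted log2 difference 7 of the 8 were lower in KO, and by mean RPKM 6 were, since Khdc1a had a mean of 11.0 RPKM in WT and 11.4 RPKM in KO. The median log2 difference of the 8 was -0.109, against 0.014 over all tested genes and 0.031 over the 500 tested genes with a mean of 100 RPKM or more. The 3 KO values were all lower than the 3 WT values for 3 of the 8 (Tle6, Padi6 and Khdc1b), where 12.2% of tested genes did so and 25.8% were without overlap in either direction. The other 5 overlapped.

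Padi6 was the 1 of these 8 members whose unadjusted limma p was under 0.05, and it did not pass after adjustment. Its values were 3225, 3061 and 3120 RPKM in WT and 2373, 2812 and 2795 RPKM in KO, so that each KO library lay below each WT library and KO replicate 1 lay lowest. The log2 difference was -0.24 ± 0.08 (SE), with a limma p of 0.016 and an adjusted p of 0.16. The 95% interval placed the KO level at 0.745 to 0.961 of WT on the RPKM + 1 scale. Padi6 stands on the minus strand of chromosome 4 (140727355 to 140742643). Without KO replicate 1 the log2 difference was -0.16, and after quantile normalization the sign of its difference turned (0.02). No other peptidylarginine deiminase was abundant here: Padi1, Padi2, Padi3 and Padi4 had WT means from 0.074 to 0.977 RPKM and did not pass the filter on low values.

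Zbed3 and Ooep, on different chromosomes (Zbed3 on chromosome 13, 95323612 to 95337841, plus strand), varied in the same libraries. Zbed3 measured 2470, 3132 and 3138 RPKM in WT and 2760, 2482 and 2467 RPKM in KO. Ooep measured 535, 718 and 806 RPKM in WT and 663, 585 and 582 RPKM in KO. In both genes WT replicate 1 lay low within its genotype, KO replicate 1 lay above the other KO libraries, and the genotypes overlapped. The log2 differences were -0.17 ± 0.10 for Zbed3 and -0.15 ± 0.14 for Ooep (SE; limma adjusted p = 0.40 and 0.60). Their 95% intervals placed the KO level at 0.751 to 1.05 of WT for Zbed3 and at 0.719 to 1.13 for Ooep, so that a difference of the size seen in Padi6 lies within both. Both depended on single WT libraries: without WT replicate 1 the log2 differences were -0.29 for Zbed3 and -0.32 for Ooep, and without WT replicate 3 they were -0.12 and -0.02.

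Nlrp5, the leucine-rich repeat member, was set apart by 1 library. It measured 611, 563 and 541 RPKM in WT and 371, 556 and 547 RPKM in KO, where KO replicate 1 lay far below and the other KO libraries fell within the WT range. The log2 difference was -0.24 ± 0.15 (SE; limma adjusted p = 0.42), and it was -0.05 without KO replicate 1. Nlrp5 covers chromosome 7 from 23385889 to 23441922 on the plus strand.

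Khdc1b had the lowest spread of the 9 genes in WT, and Tle6 had the lowest in KO. Tle6 measured 941, 957 and 1011 RPKM in WT and 926, 920 and 929 RPKM in KO, and Khdc1b 887, 877 and 875 RPKM in WT and 872, 845 and 856 RPKM in KO. In both, all KO libraries lay below all WT libraries by a small margin. The log2 differences were -0.07 ± 0.06 for Tle6 and -0.04 ± 0.05 for Khdc1b (SE; limma adjusted p = 0.56 and 0.75). The 95% intervals placed the KO level at 0.872 to 1.04 of WT for Tle6 and at 0.896 to 1.06 for Khdc1b. Among the 500 tested genes at 100 RPKM or more, the coefficient of variation over the 3 libraries had a median of 4.89% in WT and 6.71% in KO. That of Khdc1b was 0.700% in WT, the 6th lowest of the 500, and 1.59% in KO. That of Tle6 was 0.488% in KO, the lowest of the 500, and 3.80% in WT, where Padi6 was lower at 2.66%. Ooep, at 20.2% in WT, was 496th of the 500, and Nlrp5, at 21.2% in KO, was 492nd. Tle6 lies on chromosome 10 (81590904 to 81601073, minus strand) and Khdc1b on chromosome 1 (21383556 to 21386373, plus strand).

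The low pair, Khdc1a and Khdc1c, measured 10.0, 9.01 and 14.0 RPKM and 8.06, 7.49 and 9.50 RPKM in the WT libraries. In KO, Khdc1a measured 17.7, 8.27 and 8.29 RPKM and Khdc1c 12.1, 7.01 and 7.09 RPKM. KO replicate 1 was highest for both and the genotypes overlapped. The log2 differences were -0.01 ± 0.28 and 0.02 ± 0.19 (SE; limma adjusted p = 0.99 and 0.96). The 95% interval for Khdc1a, 0.637 to 1.54 of WT, was the widest of the 8. Given the near identity of their coding sequences shown above, the closeness of the 2 profiles cannot be taken as 2 independent readings.

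**Figure D2:**
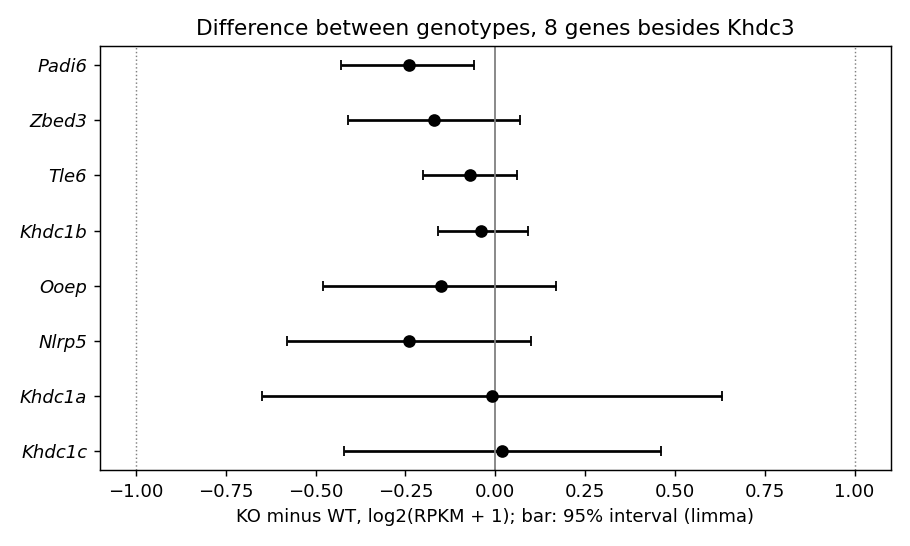
Log2 difference KO minus WT on the log2(RPKM + 1) scale (points) with its 95% interval from limma (bars) for the 8 genes besides Khdc3, and dotted lines at a doubling and a halving. The interval of Padi6 alone, -0.43 to -0.06, leaves out 0, and no interval reaches either dotted line.

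Ratios within a library do not depend on how libraries are scaled, and 10 pairs of the 5 remaining complex members were compared between genotypes. With Benjamini-Hochberg adjustment over the 10 pairs, every exact permutation p was 1.0, and the smallest unadjusted p that 3 against 3 libraries can give is 0.1. Padi6 to Tle6 was the one pair whose genotypes did not overlap. The ratio was 3.43, 3.20 and 3.09 in WT and 2.56, 3.06 and 3.01 in KO (log2 difference -0.17, unadjusted exact permutation p = 0.10), and the log2 difference was -0.09 without KO replicate 1. Zbed3 to Ooep was the steadiest ratio, at 4.62, 4.36 and 3.89 in WT and 4.16, 4.24 and 4.24 in KO, a coefficient of variation of 5.60% over the 6 libraries. Padi6 to Nlrp5 (9.16%), Padi6 to Tle6 (9.30%) and Zbed3 to Tle6 (9.33%) came next and hardly differed in spread. Ooep to Nlrp5 was the least steady, at 0.875, 1.27 and 1.49 in WT and 1.79, 1.05 and 1.06 in KO (26.6%). In KO replicate 1 Ooep lay above and Nlrp5 below the other KO libraries.

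**Figure D3:**
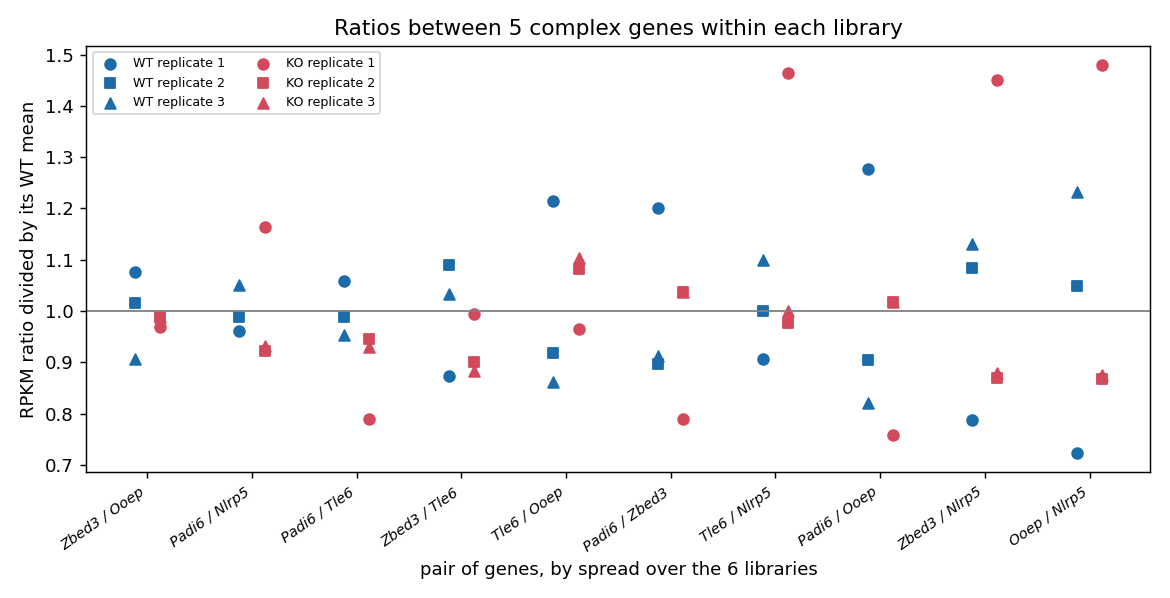
RPKM ratio of each of the 10 pairs in every library divided by the mean ratio of the 3 WT libraries, with WT in blue, KO in red and a marker shape per replicate number, ordered by the spread over all 6. Zbed3 to Ooep is tightest (5.60%) and Ooep to Nlrp5 widest (26.6%), with KO replicate 1 at an extreme of several pairs.

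The libraries differed in a way that followed gene length, and its values are given beside the members. Over 402 genes at 100 RPKM or more, the deviation of KO replicate 1 from the mean of the other 2 KO libraries had a Spearman correlation of -0.66 with exon length. Its median deviation was 0.34 (log2) for 41 genes under 1000 bases and -0.10 for 63 genes of 4000 bases or more. In the same library Nlrp5, the longest member, deviated by -0.57, Padi6 by -0.24, Khdc1a by 1.01, Khdc1c by 0.70, Ooep by 0.18 and Zbed3 by 0.16, while Tle6 (3088 bases) deviated by 0.00 and Khdc1b (2236 bases) by 0.04. The correlations in the WT libraries were 0.18, 0.36 and -0.44. Ooep deviated by -0.51 and Zbed3 by -0.34 in WT replicate 1. The part of this length trend in the ratios was not tested.

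**Figure D4:**
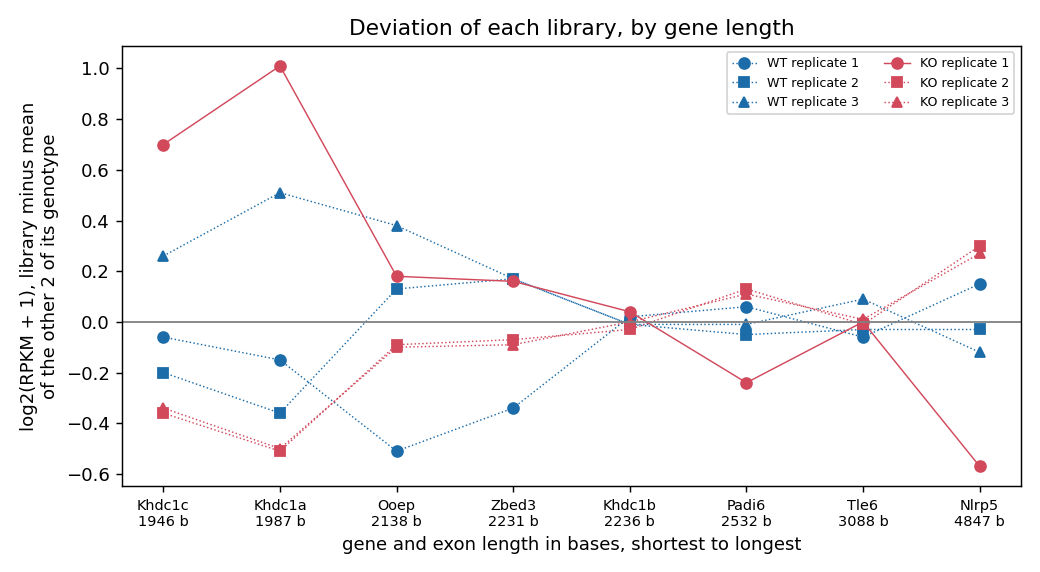
Deviation of each library from the mean of the other 2 libraries of its genotype (log2(RPKM + 1)) for the 8 genes besides Khdc3, ordered by exon length in bases, with KO replicate 1 as a solid line. KO replicate 1 lies at 0.70 in Khdc1c, the shortest (1946 bases), at 1.01 in Khdc1a (1987 bases) and at -0.57 in Nlrp5, the longest (4847 bases). All 6 libraries lie near 0 for Khdc1b.

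Gene neighbourhood was read for the KH-domain members, chosen by position. Ooep (chromosome 9, 78376109 to 78378725, minus strand) lies 5.27 Mb beyond Khdc3, in a small cluster with Dppa5a, a KH-domain gene of early embryos, 7.93 kb away. Dppa5a measured 912, 966 and 1095 RPKM in WT and 1094, 1028 and 997 RPKM in KO. The genotypes overlapped (log2 difference 0.07 ± 0.08, SE; limma adjusted p = 0.67). Omt2a, also near Ooep, measured 279, 261 and 283 RPKM in WT and 403, 297 and 304 RPKM in KO. These did not overlap, as for 25.8% of tested genes (log2 difference 0.27 ± 0.12, limma adjusted p = 0.25). Omt2b overlapped (0.17 ± 0.12, limma adjusted p = 0.47). Ddx43, at means of 0.383 RPKM in WT and 0.520 RPKM in KO, was not tested. Next to Khdc3 itself, Rsl24d1, a ribosome assembly gene, had a log2 difference of 0.27 ± 0.06 (adjusted p = 0.075, limma), and Rab27a, a GTPase of vesicle transport, one of -0.09 ± 0.11 (adjusted p = 0.68).

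Genes that work beside the complex were counted by list, as background to the members, with 2.74% of all tested genes called. Of 13 tested associates of the complex and the cytoplasmic lattices, 0 were called, 6 had a lower point value in KO, and the median log2 difference was 0.02 against 0.014 over all tested genes. The most abundant were Nlrp14, an NLR relative of Nlrp5 (2255 ± 73.6 RPKM in WT and 2201 ± 261 RPKM in KO), Fbxw24, an F-box gene (1716 ± 114 and 1760 ± 41.3 RPKM), and Dppa3, which protects the maternal genome from demethylation (1230 ± 89.0 and 1428 ± 94.5 RPKM). Of 28 maternal-effect genes outside the complex 0 were called, with a median log2 difference of -0.02. Nlrp2, Nlrp14, Uhrf1, Dppa3 and Zar1 stood in this list and among the associates, so these counts are not separate. Of 8 factors that turn on oocyte genes 0 were called, with a median of -0.10. Of these, Nobox (616 ± 52.7 RPKM in WT and 569 ± 35.8 RPKM in KO) and Lhx8 (155 ± 7.08 and 147 ± 2.09 RPKM) were the most abundant.

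The 6 KH-domain relatives tested were all members apart from Dppa5a, and the 1 called was Khdc3, the deleted gene. Dppa5a and Khdc1b stood above Ooep and Khdc3 in WT mean level. In the Padi, Tle and Zbed families, Padi6, Tle6 and Zbed3 had the highest WT means of the listed genes. Of 4 tested genes of the Tle family 0 were called. Tle6 at 970 RPKM exceeded the next, Tle4, a Groucho co-repressor, whose WT mean was 19.3 ± 0.780 and KO mean 16.3 ± 0.237 RPKM (log2 difference -0.24 ± 0.07, limma adjusted p = 0.12). Of 2 tested Zbed genes 0 were called, and Zbed5, a transposon-derived BED gene, measured 4.44 ± 0.125 RPKM in WT and 3.50 ± 0.147 RPKM in KO. Of 8 tested markers of endothelial, leukocyte and erythroid cells 0 were called, and 5 were lower in KO by point value. The list summed to between 39.4 and 96.7 RPKM in WT and to between 34.1 and 93.5 RPKM in KO. Its most abundant genes in WT were Hbb-bs, a beta globin (22.7 ± 20.7 in WT and 19.0 ± 20.4 RPKM in KO), Pecam1, an endothelial adhesion protein (13.9 ± 0.328 and 12.8 ± 1.65 RPKM), and Hba-a1, an alpha globin (8.73 ± 7.80 and 9.81 ± 11.3 RPKM). The other endothelial markers were lower than Pecam1. Means in WT and KO were 4.13 and 3.00 RPKM for Tek, 1.27 and 1.85 for Plvap, and 0.0506 and 0.150 for Cdh5, which was not tested. H2-Aa, an MHC class II chain, measured 2.42, 0.644 and 2.85 RPKM in WT and 3.89, 4.45 and 5.31 RPKM in KO, without overlap (limma adjusted p = 0.13). Of the 8 tested, every KO value lay above every WT value for 2 and below for 1, Tek. Over all tested genes 25.8% were without overlap in either direction. Cd68 averaged 2.01 RPKM in WT and 2.07 RPKM in KO. Lyz2, a lysozyme, reached 6.66 RPKM in KO replicate 2 and was at most 0.716 RPKM in the other libraries. Ptprc, the pan-leukocyte marker, was listed at 0 in 2 WT libraries and was at most 0.0216 RPKM in the others.

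The 5 genes most like the mean of the 5 remaining complex members, among 493 candidates at 100 RPKM or more, were Fbxl6, Btg4, Gdpd1, Lhx8 and Insig1. The members themselves did not share 1 profile. Between pairs of them, Pearson's r over the 6 libraries ran from -0.25 (Ooep with Nlrp5) to 0.95 (Ooep with Zbed3). Likeness to the mean is thus not likeness to each member. Likeness was Pearson's r between the log2 level of the gene and the mean of the standardized levels of the members over the 6 libraries, which share depth and length trends, and it is given as a description. It was 0.928 for Fbxl6 and Btg4, 0.927 for Gdpd1, 0.923 for Lhx8 and 0.919 for Insig1. None of these 5 was called between genotypes, with limma adjusted p-values from 0.30 to 0.49.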

How the data were processed

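RNA from mouse oocytes was sequenced in 6 libraries, 3 WT and 3 KO. Per the submitters' processing notes, the tools were FastQC 0.11.7, STAR 2.6.0c and featureCounts 1.6.2 with genome build GRCm38.p6. The authors deposited RPKM values per gene. The annotation, the strand setting and the handling of reads that fit several genes are not given in the sources used here. With exon lengths from GENCODE M21, 92.4% of 19633 matched genes gave whole reads in all libraries, within 0.01 of a read, and all 9 members did.

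The test was limma 3.58.1 (R 4.3.3, trended prior) on log2(RPKM + 1), with genotype as the term, over genes at RPKM 1 or more in at least 3 libraries, with Benjamini-Hochberg adjustment over all 12272. Recovered reads entered voom as an alternative. Single values and ratios had exact two-sided permutation tests. All 9 members are named, with up to 3 genes per list by WT level and called list genes. Also named are the 5 genes most like the mean of the remaining complex members, and the rank neighbours of Khdc3 and Padi6. Genomic neighbours were added for position. The granulosa markers below the filter, H2-Aa, Lyz2, Ptprc and further theca, stroma, endothelial and leukocyte markers were added after their values were seen. Genes shared between lists are named as well. Members and lists were chosen with earlier results of these data known. The fit was tested on simulated data. Alternatives covered pseudocount, filter, scaling, library weights, a robust prior, a replicate block and leaving out each library.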

Additional observations from a re-analysis of the deposited data

How the results depend on the processing

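Under every alternative run, 0 of the 8 members besides Khdc3 were called, and their lowest adjusted p was 0.087 (Padi6, voom). Of 136 alternative values for these 8 differences, 129 kept their sign and their side of the threshold and 7 turned in sign. Padi6 became 0.02 under quantile normalization. Khdc1c became -0.10 with library weights, -0.04 without WT replicate 2 and -0.21 without KO replicate 1. Khdc1a became 0.16 when WT replicate 3, or either of KO replicates 2 and 3, was left out. With 1 library left out, Khdc1a ranged from -0.35 to 0.16 and Khdc1c from -0.21 to 0.14. The cause was not tested. Khdc3 was called throughout. Its log2 difference of -8.57 was -9.36 with a pseudocount of 0.5, -10.65 with 0.1 and -11.27 by voom, and it ranged from -8.61 to -8.49 when 1 library was left out. In the same way Ooep ranged from -0.32 to -0.02, Nlrp5 from -0.34 to -0.05, Padi6 from -0.28 to -0.16 and Zbed3 from -0.29 to -0.12.

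Over the whole table the 336 calls became 94 with no filter on low values, 222 with a filter of RPKM 5 and 662 with library weights. With 1 library left out they ranged from 151 (without KO replicate 3) to 289 (without KO replicate 1), and were 152 without KO replicate 2, 161 without WT replicate 3 and 195 without WT replicate 2; fewer samples entered these fits. Voom on recovered reads called 428. Per kilobase of the longest coding transcript, the WT ratio to Khdc3 became 6.24 for Padi6, 6.10 for Zbed3, 2.72 for Tle6, 1.61 for Khdc1b, 1.45 for Nlrp5 and 1.25 for Ooep. Nlrp5 then exceeded Ooep.

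With the replicate number as a replicate block, 320 genes were called and no call of a member changed. Deviations of same-numbered libraries correlated at -0.02, 0.21 and -0.03, and those of differently numbered libraries at -0.15 to 0.15. The labels do not say whether same-numbered libraries were collected or prepared together, and these correlations cannot decide it.

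With 3 libraries per genotype, and intervals for Nlrp5 and Ooep that each span 0, differences of the size seen in Padi6 could not be resolved in these genes. Khdc3 in KO rested on 10 to 18 reads per library.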
